A study of Mus musculus with 12 samples.

Results

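A set of 6 TRAJ segments at the end of the mouse Tcra locus that lies closest to the constant gene, TRAJ11, TRAJ9, TRAJ6, TRAJ5, TRAJ4 and TRAJ2, was followed in the TCRα repertoires of newly developed thymic regulatory T cells (Treg). Members were the rows of the clonotype tables whose J segment had a number of 11 or less, with TRAJ7 left out by the rule, and whose CDR3 amino acid sequence held neither a stop nor a frameshift. A clonotype was a V segment, a CDR3 amino acid sequence and a J segment, and 3234 of the 22578 clonotypes of the series (14.3%) were members. They held 26012 of 199248 unique molecular identifiers (UMIs, random tags that count single cDNA molecules), which is 13.1%. The mice were B6, carried the Rag2-Gfp and Foxp3-Thy1a reporters and the Kaa Tcrb transgene, and were Tcra+/null, so that the transgene set the TCRβ chain and 1 Tcra allele could be rearranged to a functional gene. The genotypes compared were wt, Il2null (Il2°) and Il15null (Il15°), with 4 mice each, all aged 3 weeks, and CD4+CD8-Thy1.1+GFP+ thymocytes were sorted, 100000 per mouse. Total UMIs per library ranged from 7625 to 25980, and 3 UMIs, the smallest number read as a signal, were 0.0115% of the deepest and 0.0393% of the shallowest library. UMI shares do not separate more cells of a clonotype from more Tcra mRNA per cell. In the shallowest library, Il2° replicate 4, the 95% Wilson interval of the summed share was 11.97% to 13.5%, and such intervals cover counting error only. The fixed TCRβ limits the repertoires to the α chains that pair with it, and the GFP gate selects Treg that expressed Rag2 recently. The tables hold no marker genes, so the sorted cell type could not be checked in them.

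A Tcra gene is assembled by joining 1 of many TRAV segments to 1 of many TRAJ segments. The TRAJ segments are arranged in a row between the TRAV segments and the constant gene, and their numbers fall towards the constant gene. A joint at a given TRAJ deletes the segments upstream of it, and further joints of the same allele can use only TRAV segments further upstream and TRAJ segments further downstream. For this reason the segments nearest to the constant gene are known as those that the last rounds of rearrangement can reach. The CDR3, which contacts the peptide, spans the end of the TRAV segment, any bases added at the joint and the start of the TRAJ segment.

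In the GENCODE annotation of GRCm38 the TRAJ cluster lies on the plus strand of chromosome 14 and spans 63.8 kb, and TRAJ11 to TRAJ1 take up its last 11.7 kb. TRAJ1 and TRAJ8 are annotated as pseudogenes and TRAJ3 as a gene, and none of these had a row in the tables. The germline sequences of the 6 segments are shown because they encode a large part of the CDR3 of the members. Capitals mark the bases that code for the CDR3, up to its last phenylalanine, and lower case marks the rest of the segment.
TRAJ11, chr14:54207139-54207197: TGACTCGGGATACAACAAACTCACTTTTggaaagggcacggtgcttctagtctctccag
TRAJ9, chr14:54209393-54209450: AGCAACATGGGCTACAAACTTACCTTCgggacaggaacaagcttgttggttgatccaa
TRAJ6, chr14:54212688-54212749: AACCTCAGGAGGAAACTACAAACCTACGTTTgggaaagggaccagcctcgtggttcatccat
TRAJ5, chr14:54213777-54213838: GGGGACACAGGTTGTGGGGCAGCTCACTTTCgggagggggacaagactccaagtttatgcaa
TRAJ4, chr14:54216291-54216353: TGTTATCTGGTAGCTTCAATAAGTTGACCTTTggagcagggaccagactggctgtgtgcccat
TRAJ2, chr14:54217836-54217901: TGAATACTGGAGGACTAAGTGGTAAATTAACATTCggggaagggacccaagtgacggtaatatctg

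The 3' TRAJ segments together held 15.1%, 11.7%, 11.1% and 11.6% of the UMIs in wt replicates 1 to 4. In the Il2° libraries the shares were 12.3%, 15.97%, 13.9% and 12.7%, and in the Il15° libraries 12.8%, 13.3%, 13.1% and 12.1%. The ranges of the 3 genotypes overlapped, and for wt this rested on replicate 1, since the other wt libraries lay below every Il2° and Il15° library. Il2° Treg had a mean of 13.7% ± 1.7 against 12.4% ± 1.8 in wt (SD, n = 4 each; exact Mann-Whitney test, 2-sided, p = 0.2, adjusted over the 3 comparisons p = 0.514). In Il15° Treg the mean was 12.8% ± 0.5 (exact Mann-Whitney test, p = 0.343 against wt and p = 0.686 against Il2°). Without wt replicate 1 the difference of Il2° from wt was 2.24 percentage points in place of 1.34. That of Il15° from wt was then 1.38 in place of 0.483. The difference of Il2° was 0.589 without Il2° replicate 2, and that of Il15° was 0.0628 without wt replicate 3. With each clonotype counted once, the Il2° and Il15° differences from wt were 0.837 and 1.21 percentage points. They were 0.840 and 0.164 with TRAJ9 alone, and 1.44 and 0.264 with rows of at least 2 UMIs. The smallest p that 4 libraries against 4 allow in this test is 0.0286, or 0.0857 after adjustment where a single comparison of the 3 reaches it.

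TRAJ9 was the most used of the 6 segments. It held 52.6% of the member UMIs in 1418 clonotypes, and at 6.84% ± 0.81 of all UMIs (SD, n = 12 libraries) it ranked 3rd among all TRAJ segments. Its share was 8.08%, 6.18%, 5.77% and 5.99% in wt, 6.42%, 8.39%, 7.24% and 7.33% in Il2°, and 6.81%, 6.36%, 7.06% and 6.45% in Il15° replicates 1 to 4. The genotypes overlapped for TRAJ9, with wt replicate 1 and Il2° replicate 2 at the top. TRAJ4 came next with 2.24% ± 0.34 of all UMIs and 567 clonotypes. TRAJ6 (1.35% ± 0.28, 462 clonotypes) and TRAJ11 (1.29% ± 0.19, 378 clonotypes) did not differ beyond their spread, and neither did TRAJ2 (0.661% ± 0.148, 212 clonotypes) and TRAJ5 (0.598% ± 0.208, 197 clonotypes). Usage therefore did not follow the order of the segments on the chromosome. TRAJ11, the first segment inside the limit of the rule, held 1.29% of all UMIs, and TRAJ12, the first segment outside it, held 8.27%.

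**Figure D1:**
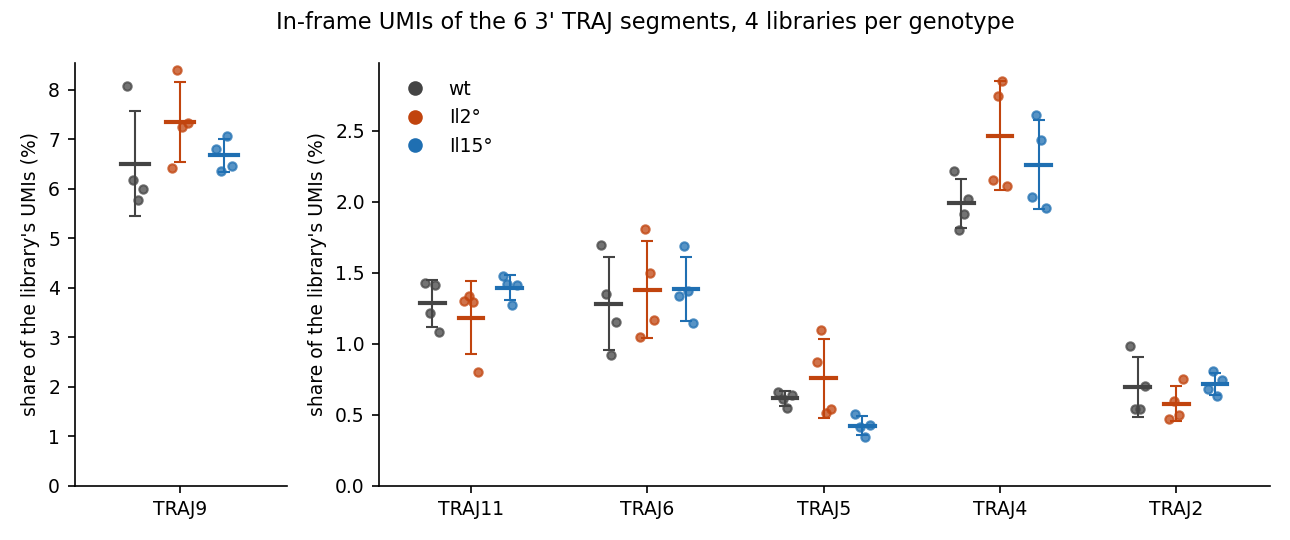
Share of all UMIs of a library (y axis, %) taken by each 3' TRAJ segment (x axis), with 1 point per library, a line at the mean and a bar of 1 SD for each genotype (n = 4). TRAJ9 stands on its own axis because it lay between 5.77% and 8.39%, and the Il15° libraries are the lowest for TRAJ5.

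TRAJ5 was the segment with a called difference between genotypes. Its share was 0.662%, 0.610%, 0.545% and 0.641% in wt, 0.874%, 1.09%, 0.514% and 0.538% in Il2°, and 0.505%, 0.414%, 0.344% and 0.430% in Il15° replicates 1 to 4. All Il15° libraries lay below all libraries of both other genotypes, although the highest of them (0.505%) was close to the lowest Il2° library (0.514%), and the Il2° mean rested on replicates 1 and 2. TRAJ5 was lower in Il15° than in Il2° Treg by a log2 fold change of -0.89 (SE 0.25, taken from the fold change and its F statistic; edgeR quasi-likelihood test, adjusted p = 0.0342 over 40 segments). Against wt the log2 fold change of TRAJ5 in Il15° was -0.48 (SE 0.23; edgeR adjusted p = 0.402). The call against Il2° was lost without Il2° replicate 1 (log2 fold change -0.83, edgeR adjusted p = 0.0873), Il2° replicate 2 (-0.62, 0.172), Il15° replicate 2 (-0.77, 0.110) or Il15° replicate 4 (-0.88, 0.0803). It was also lost with no filter on low counts (edgeR adjusted p = 0.0521) and with a replicate block (edgeR adjusted p = 0.0805).

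TRAJ4 was 2.21%, 1.802%, 1.92% and 2.02% of the UMIs in wt and 2.15%, 2.75%, 2.85% and 2.11% in Il2° replicates 1 to 4. The genotypes overlapped through wt replicate 1, and the log2 fold change of 0.34 (SE 0.12) did not pass adjustment (edgeR adjusted p = 0.0830). It passed when libraries were scaled by their totals alone (edgeR adjusted p = 0.0421). For TRAJ9 the log2 fold changes were 0.20 (SE 0.13) for Il2° against wt, 0.08 (SE 0.12) for Il15° against wt and -0.17 (SE 0.11) for Il15° against Il2°, none past the threshold (edgeR adjusted p = 0.452, 0.793 and 0.358). Leaving out 1 library moved them within 0.14 to 0.32, 0.04 to 0.18 and -0.24 to -0.06, and without wt replicate 1 the first 2 were 0.32 (edgeR adjusted p = 0.0732) and 0.18 (edgeR adjusted p = 0.355).

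Of the 6 segments, 0 were called between Il2° and wt by edgeR after adjustment and 1 at an unadjusted p under 0.05, where 0% and 20% of all 40 segments tested were called. Between Il15° and wt 0 were called after adjustment and 1 unadjusted, against 5% and 10% of all segments. Between Il15° and Il2° it was 1 at each level, against 10% and 15% of all segments. DESeq2 and limma also called 0, 0 and 1 of the 6 in these comparisons. Libraries of the compared genotypes did not overlap for 0 of the 6 segments between Il2° and wt (10% of all segments), 1 between Il15° and wt (7.5%) and 1 between Il15° and Il2° (17.5%). The median log2 fold change over the 6 segments was 0.17, 0.12 and -0.11 in the same order, and over all segments 0.03, -0.02 and -0.08. The 3 comparisons share libraries. The Il2° libraries were less deep (a mean of 13733 UMIs against 20801 in wt and 15279 in Il15°). Depth entered the edgeR fits through the scaling, the filter on low counts and the precision of the counts, without a term of its own.

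Among TRAJ9 sequences, 72.6% of the UMIs kept the germline asparagine in front of the methionine and ended in NMGYKLTF, and DMGYKLTF (4.69%), HMGYKLTF (4.32%) and GMGYKLTF (4.29%), each with another residue at that place, followed. The mean number of J bases lost at the joint was 1.99 ± 0.14 in TRAJ9, 2.37 ± 0.49 in TRAJ11 and 2.53 ± 0.57 in TRAJ5, which lay within their spread, and 3.50 ± 0.28 in TRAJ6, 3.65 ± 0.22 in TRAJ4 and 3.69 ± 0.66 in TRAJ2, which did so too (SD, n = 12). Mean CDR3 length ran from 12.97 amino acids in TRAJ11 to 15.13 in TRAJ2, in the order of the coding length of the segments only in part, since TRAJ9 has the shortest CDR3-coding part (27 bases) and a mean of 13.17 amino acids. A length of 14 amino acids took 44.1% of the member UMIs, 13 took 24.0% and 12 took 16.4%.

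The clonotypes described below, namely the 5 most abundant, the most abundant of each segment and those of lowest p without overlap between genotypes, are shown with their commonest nucleotide forms, which show how little of each CDR3 lies outside the germline segments. Lower case marks bases that match the germline TRAV or TRAJ end, and capitals mark bases that match neither.
TRAV4D-4 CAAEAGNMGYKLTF TRAJ9, form 1: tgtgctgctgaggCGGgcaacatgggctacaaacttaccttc
TRAV4D-4 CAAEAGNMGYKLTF TRAJ9, form 2: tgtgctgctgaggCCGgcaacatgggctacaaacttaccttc
TRAV4D-4 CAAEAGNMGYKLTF TRAJ9, form 3: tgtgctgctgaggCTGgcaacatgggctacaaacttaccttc
TRAV4D-4 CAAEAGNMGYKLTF TRAJ9, form 4: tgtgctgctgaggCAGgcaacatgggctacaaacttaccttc
TRAV7-3 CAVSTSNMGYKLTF TRAJ9: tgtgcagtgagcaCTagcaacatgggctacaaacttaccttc
TRAV7-3 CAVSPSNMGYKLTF TRAJ9: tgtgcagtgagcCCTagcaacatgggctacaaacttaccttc
TRAV4N-3 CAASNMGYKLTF TRAJ9: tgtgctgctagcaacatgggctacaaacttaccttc
TRAV4D-4 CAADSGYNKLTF TRAJ11: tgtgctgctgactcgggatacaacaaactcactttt
TRAV8D-2 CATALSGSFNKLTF TRAJ4: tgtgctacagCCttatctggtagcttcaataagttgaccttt
TRAV14-1 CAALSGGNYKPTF TRAJ6: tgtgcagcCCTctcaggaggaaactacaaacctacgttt
TRAV12N-3 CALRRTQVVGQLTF TRAJ5: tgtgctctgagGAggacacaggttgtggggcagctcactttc
TRAV7-3 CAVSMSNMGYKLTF TRAJ9: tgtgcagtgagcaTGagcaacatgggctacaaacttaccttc
TRAV14-1 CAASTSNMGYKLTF TRAJ9: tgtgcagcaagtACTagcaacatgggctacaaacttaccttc
TRAV14D-3/DV8 with TRAJ9, the clonotype of lowest p without overlap between Il15° and wt: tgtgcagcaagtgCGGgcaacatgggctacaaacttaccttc
TRAV14-1 with TRAJ2, its most abundant clonotype: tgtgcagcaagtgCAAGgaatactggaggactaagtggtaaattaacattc

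The 5 most abundant clonotypes held 12.6% of the member UMIs, and 4 of them used TRAJ9. In the most abundant, TRAV4D-4 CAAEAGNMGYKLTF TRAJ9, all 4 forms shown have 3 bases between the same 13 TRAV and 26 TRAJ bases, and they differ in the second of these 3, the last base of an alanine codon. The 4 forms held 41.4%, 34.6%, 11.6% and 6.45% of its 760 UMIs, and the first and the second were found in all 12 libraries. TRAV4N-3 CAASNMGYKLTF TRAJ9 and TRAV4D-4 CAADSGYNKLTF TRAJ11 had 0 bases outside the germline ends in their commonest form, which held 64.1% and 79.4% of their UMIs. The TRAV7-3 pair with TRAJ9, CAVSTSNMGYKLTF and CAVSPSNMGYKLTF, differ by the threonine or proline at position 5, counted from the conserved cysteine as 1.

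The share of TRAV4D-4 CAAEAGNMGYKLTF TRAJ9 was 0.693%, 0.284%, 0.438% and 0.583% in wt, 0.113%, 0.134%, 0.208% and 0.262% in Il2°, and 0.544%, 0.349%, 0.288% and 0.387% in Il15° replicates 1 to 4. All Il2° libraries lay below all libraries of the other genotypes. Its log2 fold change was -1.42 (SE 0.39) in Il2° against wt and 1.03 (SE 0.41) in Il15° against Il2°, and neither passed adjustment over all clonotypes tested (edgeR adjusted p = 0.200 and 0.489). TRAV4D-4 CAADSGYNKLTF TRAJ11 was also lowest in Il2°, with 0.362%, 0.280%, 0.288% and 0.277% in wt, 0.143%, 0.204%, 0.208% and 0.157% in Il2°, and 0.333%, 0.552%, 0.270% and 0.258% in Il15° replicates 1 to 4. Here too the Il2° libraries did not overlap the others, with a log2 fold change of -0.68 against wt (SE 0.35; edgeR adjusted p = 0.544).

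TRAV4N-3 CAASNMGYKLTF TRAJ9 and TRAV8D-2 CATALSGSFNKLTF TRAJ4 were higher in each Il2° library than in any wt library. The first was 0.277%, 0.318%, 0.269% and 0.179% in wt, 0.354%, 0.407%, 0.364% and 0.328% in Il2°, and 0.244%, 0.262%, 0.242% and 0.161% in Il15° replicates 1 to 4. The Il2° libraries did not overlap either other genotype, with log2 fold changes of 0.53 (SE 0.33) for Il2° against wt and -0.81 (SE 0.36) for Il15° against Il2° (edgeR adjusted p = 0.713 and 0.497). The same CDR3 with TRAV4D-3, a near-identical copy, had means of 0.0767% in wt, 0.0651% in Il2° and 0.0237% in Il15°. Its log2 fold change between Il2° and wt was -0.12 (SE 0.78; edgeR adjusted p = 0.974), and the alignment may have split the reads of such copies. TRAV8D-2 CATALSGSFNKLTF TRAJ4 was 0.193% ± 0.009 in Il2° against 0.0893% ± 0.0479 in wt and 0.104% ± 0.044 in Il15° (SD, n = 4 each), with a log2 fold change of 1.21 between Il2° and wt (SE 0.49; edgeR adjusted p = 0.391). The abundant pair with TRAV7-3 overlapped in all genotypes, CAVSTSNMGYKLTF with 0.330% ± 0.053 in wt, 0.397% ± 0.164 in Il2° mice and 0.342% ± 0.217 in Il15° mice, and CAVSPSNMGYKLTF with 0.300% ± 0.134, 0.378% ± 0.081 and 0.334% ± 0.154 (SD, n = 4 each).

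The most abundant clonotypes of TRAJ6, TRAJ2 and TRAJ5 overlapped between all genotypes. TRAV14-1 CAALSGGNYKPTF TRAJ6 had 0.0925% ± 0.0555 in wt, 0.107% ± 0.045 in Il2° mice and 0.146% ± 0.043 in Il15° mice. TRAV14-1 with TRAJ2 had 0.0926% ± 0.0469, 0.110% ± 0.055 and 0.0854% ± 0.0515, and TRAV12N-3 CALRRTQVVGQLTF TRAJ5 had 0.0733% ± 0.0541, 0.0696% ± 0.0556 and 0.0689% ± 0.0321 in the same order (SD, n = 4 each).

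**Figure D2:**
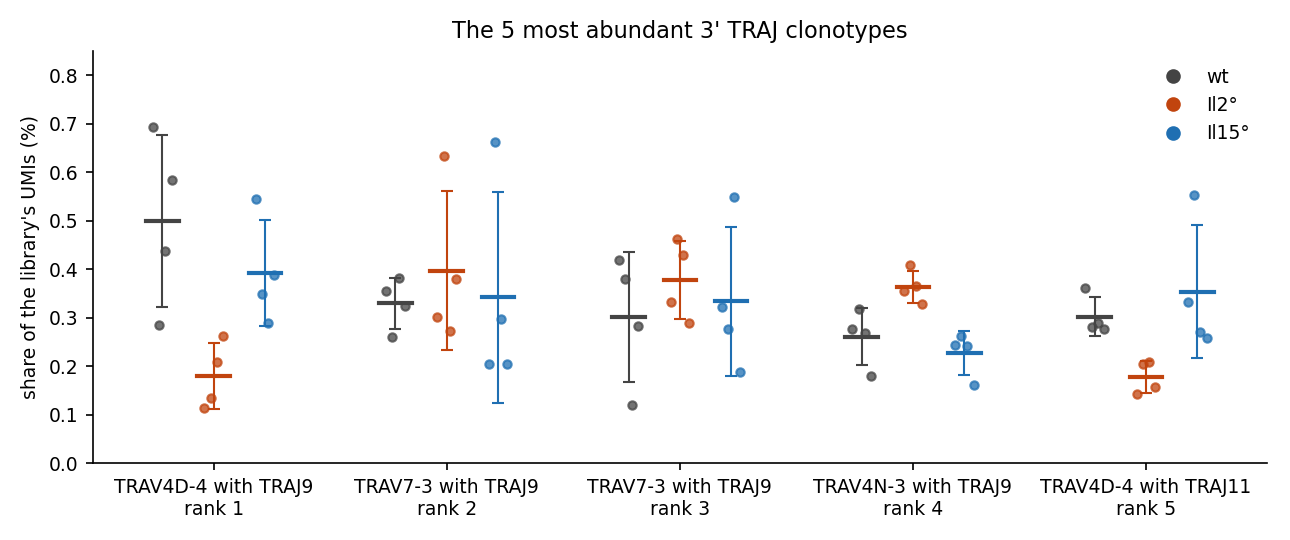
Share of all UMIs of a library (y axis, %) for the 5 most abundant clonotypes of the 3' TRAJ segments in order of their mean share (x axis), with 1 point per library, a line at the mean and a bar of 1 SD for each genotype (n = 4). Both TRAV4D-4 clonotypes are lowest in Il2°, and TRAV4N-3 with TRAJ9 is highest in Il2°, without overlap.

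Between Il15° and Il2° Treg, the clonotypes of lowest p that did not overlap also used TRAJ9. TRAV7-3 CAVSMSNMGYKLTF was 0.0666%, 0.0363%, 0.0279% and 0.0377% in Il15° and 0.249%, 0.0804%, 0.0910% and 0.105% in Il2° replicates 1 to 4 (log2 fold change -1.69, SE 0.70; edgeR adjusted p = 0.489). TRAV14-1 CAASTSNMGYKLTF had a log2 fold change of -2.27 (SE 1.00; edgeR adjusted p = 0.489). It had 7, 4, 0 and 1 UMIs in Il15° replicates 1 to 4, and 22, 10, 11 and 4 in Il2°. The counts in Il15° replicates 3 and 4 lie under the 3 UMIs read as a signal. In both clonotypes, Il2° replicate 1 was far above the other Il2° libraries. Between Il15° and wt the clonotype of this kind was TRAV14D-3/DV8 with TRAJ9, at 0.0666%, 0.0800%, 0.0837% and 0.0915% in Il15° and 0.0462%, 0, 0.0438% and 0.0519% in wt replicates 1 to 4 (log2 fold change 1.14, SE 0.87; edgeR adjusted p = 0.982). The 0 in wt replicate 2 allows a share of up to 0.0125%.

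Most members were too rare for a test. Of the 3234 clonotypes, 69 passed the minimum of 5 UMIs in 4 of 8 libraries for Il2° against wt, 55 for Il15° against wt and 51 for Il15° against Il2°, and after adjustment edgeR, DESeq2 and limma each called 0 of them. Over all clonotypes tested, edgeR called 0%, 0% and 0.276% after adjustment. At an unadjusted p under 0.05 edgeR called 3 members (1 higher, 2 lower) in Il2° against wt, 0 in Il15° against wt and 7 (2 higher, 5 lower) in Il15° against Il2°. The shares of all clonotypes tested were 9.27%, 4.18% and 9.39%. Libraries did not overlap for 4, 1 and 7 members, where 8.19%, 5.44% and 8.56% of all clonotypes tested did not. The median log2 fold change of the members was 0.23, -0.22 and -0.22, and that of all clonotypes tested 0.10, -0.17 and -0.12. The spread of single clonotypes between libraries of a genotype, as a coefficient of variation of 0.653, 0.735 and 0.733 in these fits, limits what can be called.

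The CDR3 of the 3' sequences was longer on average in every Il15° library than in any Il2° library. The mean length per library, weighted by UMIs, was 13.45, 13.44, 13.29 and 13.44 amino acids in wt, 13.38, 13.37, 13.29 and 13.33 in Il2°, and 13.46, 13.49, 13.45 and 13.42 in Il15° replicates 1 to 4. Every Il15° library lay above every Il2° library, by a mean of 0.116 amino acids (SE 0.026; exact Mann-Whitney test, p = 0.0286, adjusted p = 0.0857), so that the difference did not pass adjustment. When each clonotype was counted once, the mean was 13.41 ± 0.02 in wt, 13.34 ± 0.04 in Il2° mice and 13.52 ± 0.06 in Il15° mice (SD, n = 4 each). By this count no pair of genotypes overlapped, and each of the 3 comparisons had an exact Mann-Whitney p of 0.0286, which stayed 0.0286 after adjustment over the 3. The differences were -0.07 amino acids for Il2° against wt, 0.10 for Il15° against wt and 0.17 for Il15° against Il2°. With TRAJ9 alone, weighted by UMIs, Il15° exceeded Il2° by 0.151 amino acids (exact Mann-Whitney test, p = 0.0286, adjusted p = 0.0857), a comparison added after the data were seen.

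Weighted by UMIs, the remaining TRAJ segments had mean lengths of 13.03 ± 0.02 amino acids in wt, 13.03 ± 0.03 in Il2° mice and 13.04 ± 0.01 in Il15° mice (SD, n = 4 each; exact Mann-Whitney test, p = 0.686 in each comparison). The UMI-weighted excess of the 3' segments over the others was 0.418 in Il15° and 0.315 in Il2°, a difference of 0.102 between genotypes that did not pass adjustment over the 12 tests of this kind (exact Mann-Whitney test, p = 0.0286, adjusted p = 0.0686). With each clonotype counted once, the remaining segments had 13.11 ± 0.02 amino acids in wt, 13.06 ± 0.07 in Il2° mice and 13.14 ± 0.05 in Il15° mice, the same order of means as in the 3' segments (exact Mann-Whitney test, p = 0.114 or more). By this count the excess of the 3' segments was 0.303 in wt, 0.278 in Il2° mice and 0.379 in Il15° mice, and no difference of the excess between genotypes passed (exact Mann-Whitney test, p = 0.114 or more, lowest adjusted p over 6 tests 0.343). The comparisons with the remaining segments were added after the data were seen.

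**Figure D3:**
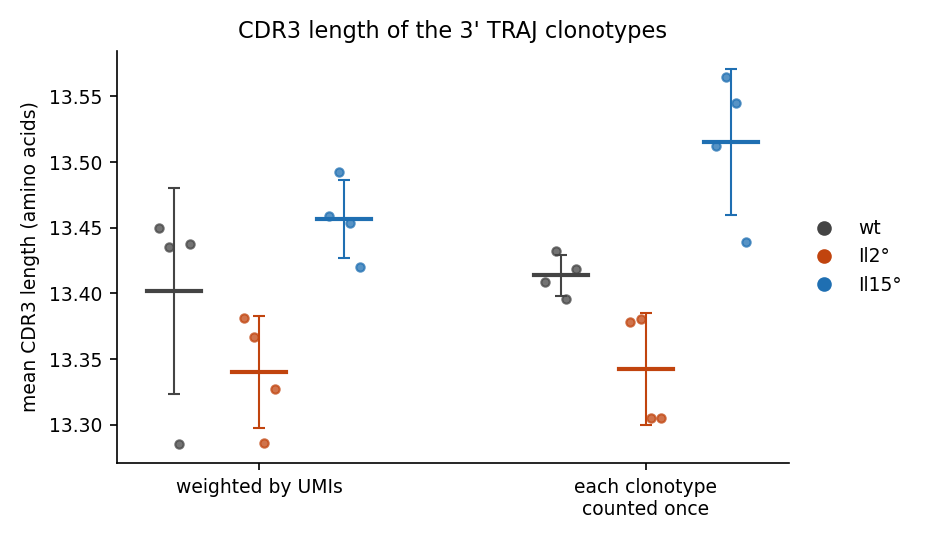
Mean CDR3 length of the 3' TRAJ sequences (y axis, amino acids, not starting at 0) weighted by UMIs or with each clonotype counted once (x axis), with 1 point per library, a line at the mean and a bar of 1 SD for each genotype (n = 4). The Il15° libraries sit above the Il2° libraries in both, from 13.42 against at most 13.38 when weighted by UMIs.

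Positions 4 to 6 of the CDR3, counted from the conserved cysteine, lie in the stretch where the joint falls. Their net charge took lysine and arginine as +1 and aspartate and glutamate as -1. It was -0.0598, -0.0193, -0.0620 and -0.0289 per CDR3 in wt and -0.0154, 0.0205, -0.0103 and -0.0041 in Il2° replicates 1 to 4. Every Il2° library lay above every wt library, by a mean of 0.0402 (SE 0.0134; exact Mann-Whitney test, p = 0.0286, adjusted p = 0.0857). The difference fell to 0.0137 without the most abundant clonotype, TRAV4D-4 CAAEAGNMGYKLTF TRAJ9 (exact Mann-Whitney test, p = 0.486), and to 0.0159 with each clonotype counted once (exact test, p = 0.343). The Il15° libraries had -0.0104, 0, 0.0092 and -0.0652 and overlapped both. In the remaining TRAJ segments the charge was 0.114 ± 0.023 in Il2° and 0.0127 ± 0.0157 in wt (SD, n = 4 each), and the 3' segments minus the others differed between these genotypes by -0.0613 (Il2° minus wt; exact Mann-Whitney test, p = 0.0286, adjusted over 12 tests p = 0.0686). The hydropathy of the same residues was between means of -0.83 and -0.80 and did not pass the test (exact Mann-Whitney test, p = 0.2 or more).

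Serine was the commonest residue at position 4 (43.7% of member UMIs, 28.4% in the remaining TRAJ segments) and position 5 (14.2% and 8.55%). At position 6 glycine (31.0% and 21.4%), serine (29.3% and 18.7%) and methionine (11.1% and 0.985%) led, and the methionine is the one that TRAJ9 encodes. Arginine, a positively charged residue, took 11.95% at position 4 against 17.0% in the remaining segments. The germline TRAJ bases also encode other residues at these positions, such as the serine at position 6 of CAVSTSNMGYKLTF. The rule chose the TRAJ segments and so set part of these contrasts with the remaining segments. Glycine at position 6 was 32.6% in wt, 27.2% in Il2° mice and 33.1% in Il15° mice, and of the 27 tests of the 3 commonest residues between genotypes none passed adjustment (exact Mann-Whitney test, lowest adjusted p = 0.110).

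The TRAV partners of the 3' segments were not used to choose them. TRAV7-3 (chr14:53443249-53443839) took 10.4% ± 1.7 of the 3' UMIs against 5.22% ± 0.75 of the UMIs of the remaining TRAJ segments (SD, n = 12), and it was higher in 12 of 12 libraries. TRAV4N-3 (chr14:53210906-53211407; 10.3% ± 1.1 against 7.65% ± 1.30), TRAV12N-3 (chr14:53240745-53241244; 9.72% ± 1.97 against 4.86% ± 0.89), TRAV3D-3 (chr14:52972448-52973038; 4.55% against 2.60%) and TRAV14-1 (chr14:53554022-53554558; 4.52% against 2.14%) were also higher by these names in 12 of 12 (exact sign-flip permutation test, adjusted p = 0.00084 over 31 segments for each). TRAV4D-4 (chr14:52990866-52991389) had 8.98% ± 2.51 against 6.35% ± 0.48 and was higher in 10 of 12 libraries (exact sign-flip test, adjusted p = 0.0093). The exceptions were Il2° replicate 1 (4.05% against 6.60%) and Il2° replicate 2 (5.91% against 6.95%). Counted by clonotypes, TRAV4D-4 was lower in the 3' set, with a difference of -0.549 percentage points (exact sign-flip test, p = 0.04), so that its higher share was one of UMIs and not of clonotypes. These 6 partners held 48.5% of the 3' UMIs.

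The partner that differed most in the other direction was TRAV4D-3, with 3.95% of the 3' UMIs and 18.2% of the rest, lower in 12 of 12 libraries. TRAV8D-2, a minor segment with 0.240% of the UMIs of the remaining segments, took 3.24% of those of the 3' segments. Of 31 TRAV segments tested by name, 16 were higher and 12 lower in the 3' set (exact sign-flip test, adjusted p under the threshold of 0.05). The mouse TRAV locus holds near-identical copies, marked D or N, whose reads the alignment may have split, and with copies merged 12 of 25 were higher and 9 lower. Merging joins TRAV4N-3 with TRAV4D-3, and the merged TRAV4-3 was lower in the 3' set in 12 of 12 libraries (14.4% against 26.0%), the direction of TRAV4D-3 and the reverse of that of TRAV4N-3. TRAV7-3, TRAV12-3, TRAV4-4, TRAV14-1 and TRAV8-2 (3.57% against 0.507%) stayed higher when merged, whereas the merged TRAV3-3 no longer passed (4.85% against 4.17%; exact sign-flip test, adjusted p = 0.0993). TRAV4D-3 and TRAV8D-2 were chosen after their values were seen, and the tests of single TRAV segments were added then.

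**Figure D4:**
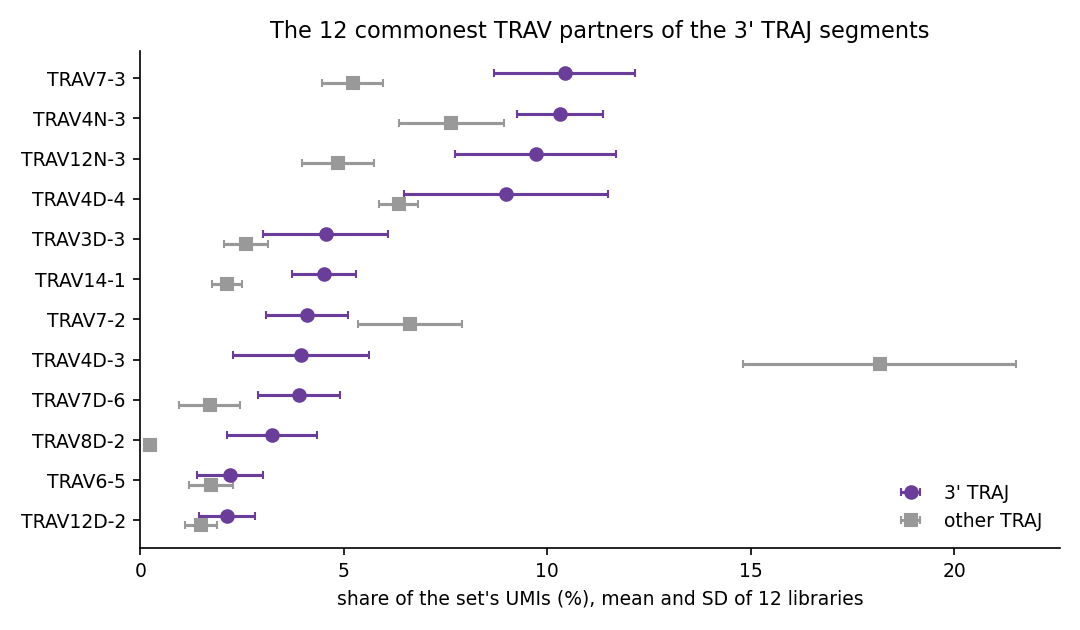
Share of UMIs (x axis, %) of the 12 commonest TRAV partners (y axis) among the 3' TRAJ sequences (circles) and the remaining TRAJ sequences (squares), as means over 12 libraries with bars of 1 SD. TRAV7-3 and TRAV12N-3 take 10.4% and 9.72% of the 3' UMIs, against 5.22% and 4.86% of the rest, and TRAV4D-3 lies far to the right in the rest.

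Within the 3' set TRAV4D-4 was least used in Il2° mice. It took 12.04%, 10.4%, 11.3% and 11.5% of the 3' UMIs in wt, 4.05%, 5.91%, 6.88% and 7.23% in Il2°, and 9.99%, 10.99%, 9.15% and 8.42% in Il15° replicates 1 to 4. The Il2° libraries lay below all others, and the difference from wt was -5.28 percentage points (exact Mann-Whitney test, p = 0.0286, adjusted over 18 tests p = 0.257). Without the most abundant clonotype, TRAV4D-4 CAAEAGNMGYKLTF TRAJ9, the difference was -2.84 points, and with each clonotype counted once it was -0.201 points (exact Mann-Whitney test, p = 0.886). In the remaining TRAJ segments TRAV4D-4 took 6.58% in wt and 6.36% in Il2° (exact Mann-Whitney test, p = 0.686). This comparison was also added after the data were seen.

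Successive rearrangement pairs 3' TRAJ segments with TRAV segments further upstream, so the distance from the TRAV segment to the first TRAJ segment was compared. It was 950 ± 13 kb in the 3' set and 966 ± 15 kb in the remaining TRAJ segments (SD, n = 12), and it was shorter for the 3' set in 11 of 12 libraries, with a mean difference of -15.6 kb (exact sign-flip permutation test, p = 0.00098). The direction depended on the reference, since against TRAJ12 to TRAJ18 the 3' set was farther by 10.99 kb (9 of 12 libraries, exact sign-flip test, p = 0.0435). TRAJ12, with 8.27% of all UMIs and a mean of 859 kb, belongs to both references, and with TRAJ12 left out of the remaining segments the difference was -26.8 kb (12 of 12 libraries, exact sign-flip test, p = 0.0005), a comparison added after the data were seen. Among the 3' segments the mean ran from 890 kb (TRAJ6) and 892 kb (TRAJ2) to 1016 kb (TRAJ11), with TRAJ9 at 944 kb, and among all TRAJ segments with enough UMIs from 812 kb (TRAJ42) to 1182 kb (TRAJ32). Genotypes had means of 955 ± 18 kb in wt, 942 ± 8 kb in Il2° mice and 953 ± 10 kb in Il15° mice (SD, n = 4 each; exact Mann-Whitney test, p = 0.2 or more), and with copies merged the signs of Il2° minus wt and of Il15° minus Il2° turned.

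For the position of the TRAV partners, the stretch from 278 to 1726 kb from the first TRAJ was cut into 3 equal lengths. The partners of the 3' segments lay in its central part more often than those of all remaining TRAJ segments, but not detectably more often than those of TRAJ12 to TRAJ18. The central part (761 to 1244 kb) held 59.5% of the 3' UMIs and 40.8% of the rest, higher in 12 of 12 libraries. The distal part (1244 to 1726 kb) held 12.4% and 29.2%, lower in 12 of 12, and the proximal part (278 to 761 kb) 28.2% and 29.9%, lower in 10 of 12 (exact sign-flip tests, p = 0.0005, the smallest they can give, for the first and second, and 0.0034 for the proximal part). TRAV4D-3 lies just beyond the border of the central part, and without it the central part held 62.0% and 50.1%, and the distal part 8.64% and 13.2%. Its near-identical copy TRAV4N-3 (944 kb) lies in the central part and was kept. The merged TRAV4-3 held 14.4% of the 3' UMIs and 26.0% of the rest. The division was not repeated with copies merged, so its dependence on how the alignment assigned copies was not tested. Against TRAJ12 to TRAJ18 alone the distal part was lower in 12 of 12 libraries, with a difference of -2.59 percentage points (exact sign-flip test, p = 0.0005), the central part held 59.5% and 58.3%, a difference of 1.20 points (exact sign-flip test, p = 0.0869), and the direction of the proximal part turned, with 1.39 points more in the 3' set in 8 of 12 libraries (exact sign-flip test, p = 0.0625). This division was added after the data were seen, and 3.99% of the 3' UMIs and 1.69% of the rest had a TRAV name without a position and were left out.

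**Figure D5:**
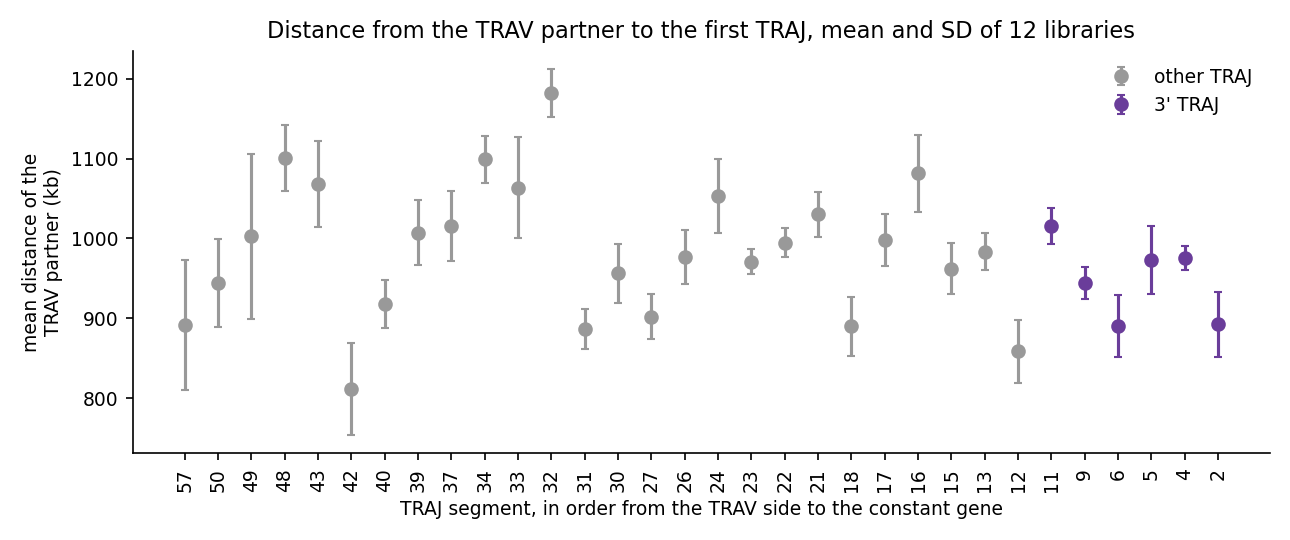
Mean distance from the TRAV partner to the first TRAJ segment (y axis, kb) for each TRAJ segment in chromosomal order (x axis), as means over 12 libraries with bars of 1 SD. The 3' segments lie between 890 and 1016 kb, inside the range of the other segments.

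Bases that neither segment provides, by the positions in the tables, numbered a mean of 2.55 per 3' sequence and 1.98 in the remaining TRAJ segments, higher in 12 of 12 libraries (exact sign-flip test, p = 0.0005). Against TRAJ12 to TRAJ18 alone the excess was 0.768 bases, higher in 12 of 12 libraries (exact sign-flip test, p = 0.0005). With each clonotype counted once the excess of 0.568 bases became 0.0638 (exact sign-flip test, p = 0.127), with V and J ends found by match to the germline it was 0.0623 (p = 0.252 in the exact test), and without TRAJ9 it was -0.0548 (exact test, p = 0.254). The comparisons by germline match and without TRAJ9 were added after the data were seen. Genotypes had 2.47 in wt, 2.58 in Il2° mice and 2.59 in Il15° mice (exact Mann-Whitney test, p = 0.2 or more).

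Of the 3234 clonotypes, 1718 (53.1%) were found in 1 library only, against 52.5% of the clonotypes of the remaining TRAJ segments. In all 12 libraries there were 25 (0.773% against 0.857%), and these held 23.3% of the member UMIs. Public clonotypes, found in all 4 libraries of a genotype, numbered 92 in wt, 63 in Il2° and 60 in Il15°, each 14.9% of all public clonotypes of that genotype, and held 41.1% ± 2.3, 32.9% ± 2.8 and 34.2% ± 4.4 of the member UMIs (SD, n = 4). Of the 92 that were public in wt, 41 (44.6%) were also public in Il2° and 33 (35.9%) in Il15°. Of the 526 from the remaining TRAJ segments that were public in wt, 45.2% were also public in Il2° and 39.5% in Il15°. No Il2° library held 2 of the 92 (2.17%, against 6.46% of the 526), and no Il15° library held 16 (17.4%, against 11.2%), and these shares were not tested against each other. The number of public clonotypes may move with depth and with the number of member clonotypes per library, which was 323 to 866. The part of depth in these counts was not tested. A single nucleotide form encoded 81.7% of the members (79.6% of the rest), and 53 members (1.64%, against 2.38% of the rest) had 5 forms or more. The most was 13, in TRAV8D-2 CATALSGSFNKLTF TRAJ4 and TRAV14-1 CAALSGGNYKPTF TRAJ6.

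Across the 12 libraries, the TRAJ segments outside the set whose share was most like that of TRAJ9 were TRAJ12 (Pearson r = 0.61), TRAJ13 (0.58) and TRAJ43 (0.51), out of 26 with at least 0.5% of the UMIs. For the summed 3' share they were TRAJ12 (0.60), TRAJ21 (0.45) and TRAJ13 (0.44). Within the set TRAJ9 was most like TRAJ6 (0.72) and least like TRAJ11 (-0.02). These values describe 12 libraries of 3 genotypes whose shares sum to a fixed total.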

How the data were processed

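TCRα cDNA of newly developed thymic Treg from 12 mice, 4 per genotype, was sequenced with UMIs, and each table came from 1 mouse. The authors filtered reads at a quality of 20, built a consensus per UMI with at least 2 reads in pRESTO, assembled clonotypes in MiXCR and wrote them in VDJtools format. The deposited counts are whole UMIs per clonotype, without normalization, and the deposited fraction is the count divided by the library total. Tool versions are not given in the sources used here, and the submitters' processing notes name mm10. The members, the gene lists and the tests were chosen with earlier results of these data known.

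Shares, CDR3 lengths, charge (K and R +1, D and E -1 at CDR3 positions 4 to 6), Kyte-Doolittle hydropathy, inserted bases and TRAV distances were computed per library, weighted by UMIs. Germline segments and positions came from GENCODE M21 on GRCm38, the same build as mm10, and 102 of 105 TRAV names had a position. Genotypes were compared by exact 2-sided Mann-Whitney tests with Benjamini-Hochberg adjustment over the 3 comparisons, and the 3' and remaining TRAJ sets by exact 2-sided sign-flip tests over the 12 libraries. Segment and clonotype counts were fitted over all features that reached 5 UMIs in 4 or more of the 8 compared libraries by edgeR 4.0.16 (quasi-likelihood, TMM, library totals as sizes; R 4.3.3), with DESeq2 1.42.0 and limma 3.58.1 on log2(percent + 0.01) as alternatives. Python 3.11.15 with scipy 1.17.1 was used for the rest. The edgeR fits and the exact tests were checked on simulated data.

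All 6 segments were named. Named clonotypes were the 5 of highest mean share, the top one of each segment and, per comparison, up to 3 of lowest edgeR p whose genotypes did not overlap. A further TRAJ5 clonotype was named after its values were seen. TRAV partners were the 6 commonest, and the residues the 3 commonest at each position. Alternatives were counting clonotypes once, rows of at least 2 UMIs, in-frame totals, downsampling, merged TRAV copies, other references, leaving out each replicate and a replicate block. Positions of V and J ends that fell outside the CDR3 left out 22 member rows. Labels give replicate numbers, and the paper states that cells were sorted from individual mice, so p-values measure the spread between mice. Same-numbered libraries were treated as unpaired, since no label pairs them. Their deviations correlated at r between -0.43 and 0.52, which does not settle whether they are paired. The paper describes the wt mice as littermates, without saying which libraries share a litter. No 2 libraries held identical values.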

Additional observations from a re-analysis of the deposited data

Results flagged for a closer look

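Of 90 groups of 4 libraries examined, 7 had a library far from the other 3, and chance gives about 1 in 20. The summed share of the 3' segments was 15.1% in wt replicate 1 and 11.1% to 11.7% in the other wt libraries. Mean CDR3 length was 13.29 amino acids in wt replicate 3 and 13.44 to 13.45 in the others. TRAJ11 was 0.800% in Il2° replicate 4, the shallowest library, and 1.29% to 1.33% in the others. Among clonotypes, TRAV4D-4 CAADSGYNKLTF TRAJ11 was 0.362% in wt replicate 1 and 0.277% to 0.288% in the others. Il2° replicate 1 was set apart for a pair of TRAJ9 clonotypes, TRAV7-3 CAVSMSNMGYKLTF with 0.249% (others 0.0804% to 0.105%) and TRAV14-1 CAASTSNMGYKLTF with 0.166% (others 0.0525% to 0.0715%). The clonotype of TRAV14D-3/DV8 with TRAJ9 was 0 in wt replicate 2 and 0.0438% to 0.0519% in the others.

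Rows of the 6 segments with a stop or frameshift, which no comparison used, held 124 UMIs in 68 rows, or 0.474% of the UMIs of these segments, and were found in every library (4 to 24 UMIs, 0.265% to 0.973%). In the remaining TRAJ segments such rows held 4.95% of the UMIs, and 1.37% with TRAJ7, TRAJ44 and TRAJ47 left out.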

How the results depend on the processing

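Of 766 alternative values for 65 results, 707 kept direction and side of the threshold, or for counts stayed within 1.5 times. Part of this number was fixed in advance. For the Mann-Whitney results, which did not pass in the main setting, leaving out a replicate could change the direction only. The replicate block could change neither the direction nor the side of the threshold of these results. With each clonotype counted once, the 3' share of Il15° minus Il2° became 0.376 percentage points, CDR3 length passed in all 3 comparisons (-0.071, 0.101 and 0.173 amino acids), hydropathy turned to -0.0359 (Il2° minus wt) and -0.0182 (Il15° minus wt), charge turned to 0.0127 (Il15° minus Il2°), the excess of inserted bases fell to 0.0638, and TRAV4D-4 turned to -1.24 points (Il15° minus Il2°) and -0.549 points (3' against the rest). Without the most abundant clonotype, TRAV distance (Il15° minus wt) was 0.406 kb and charge (Il15° minus Il2°) 0.00334. With TRAJ9 alone, TRAV distance (Il15° minus wt) was 15.3 kb and hydropathy (Il15° minus Il2°) -0.00967, both added after the data were seen. Merged TRAV copies gave distances of 4.95 kb (Il2° minus wt) and -15.1 kb (Il15° minus Il2°), and turned TRAV4N-3 to -11.6 points (3' against the rest). Against TRAJ12 to TRAJ18, the 3' distance was 10.99 kb farther, the proximal part 1.39 points higher and the central part 1.20 points higher. Inserted bases were 0.0623 in excess by germline match and -0.0548 without TRAJ9. The cause was not tested in any of these.

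In edgeR fits, TRAJ4 was called between Il2° and wt (1 segment in place of 0) by library totals alone (adjusted p = 0.0421) or with no filter (edgeR adjusted p = 0.0412), and TRAJ5 was not called between Il15° and Il2° (0 segments in place of 1) with no filter (edgeR adjusted p = 0.0521). The log2 fold change of TRAJ6 (Il15° minus Il2°) was 0.024 by limma and 0.022 with no filter, against -0.05. A replicate block left 0 segments called between Il15° and Il2° (TRAJ5, edgeR adjusted p = 0.0805) and changed no other call. Whether the numbers pair the mice is not known. Leaving out 1 replicate, segments called ranged from 0 to 1 between Il2° and wt (1 without wt replicate 1, Il2° replicate 1 or Il2° replicate 4) and from 0 to 1 between Il15° and Il2°. TRAV distance (Il15° minus wt) ranged from -6.30 to 6.49 kb and charge (Il15° minus Il2°) from -0.0229 to 0.00194. Log2 fold changes crossed 0 for TRAJ11 (-0.17 to 0.040) and TRAJ6 (-0.013 to 0.31) in Il2° minus wt, TRAJ2 (-0.022 to 0.30) in Il15° minus wt and TRAJ6 (-0.17 to 0.14) in Il15° minus Il2°. With 3 libraries against 4 the exact Mann-Whitney test cannot pass. Depth limits what can be seen of single clonotypes, since 3 UMIs are up to 0.0393% of a library.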

Other observations

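TRAJ7, which lies among the 3' segments and was left out by the rule, had 935 rows and 2330 UMIs in the 12 libraries, of which 17 UMIs were in frame. The same CDR3 amino acid sequence was also found with several TRAV names. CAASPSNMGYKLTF occurred with 8 TRAV names (6 with D and N copies merged), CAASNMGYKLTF with 6 (4 merged) and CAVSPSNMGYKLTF with 5 (3 merged), whereas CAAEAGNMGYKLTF occurred with 2 (2 merged), nearly all of its 761 UMIs with TRAV4D-4 (760).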
